A study of Mus musculus with 6 samples.

Results

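Kif5b and Kif5c encode heavy chains of kinesin-1, and they were followed through 6 lists of binding peaks for thyroid hormone receptor α (TRα) from mouse gastrocnemius, the main muscle of the calf. A peak counted as theirs when the annotation text deposited behind it named their protein. By this rule 38 of the 491681 peaks in all lists belonged to the 2 genes, 27 to Kif5c and 11 to Kif5b. Text of this kind named a gene for 3812 peaks, and it named 395 genes in all. The genes were chosen by measured values, namely which peaks carried their names and that a Kif5c region had a peak in every mouse, so that recurrence is described here and not tested.

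The lists came from chromatin immunoprecipitation and sequencing (ChIP-seq) of muscle from 6 mice, 2 each at 6, 15 and 21 months of age, with 1 list per mouse. The labels name no genotype, strain or treatment for any of the mice, and whole muscle was used, so fibres, nerve, vessels and other cells contributed chromatin together. No transcript levels were used, so muscle markers could not be set beside these peaks. At 6 months the lists were 79040 and 106152 peaks long (replicate 1 before replicate 2, here and below), at 15 months 99436 and 29405, and at 21 months 91661 and 85987.

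Kinesin-1 is a motor that walks towards the plus end of microtubules, built from heavy chains that carry the motor and light chains that help bind cargo. Kif5b is the widely expressed heavy chain and takes part in mitochondrial transport and in the placement of nuclei along muscle fibres, whereas Kif5a and Kif5c are best known from neurons. TRα is a nuclear receptor that mostly binds DNA together with a retinoid X receptor, at repeats of the sequence AGGTCA. In the deposited text Kif5b and Kif5c carried the same 7 pathway entries, among them endocytosis, the dopaminergic synapse and several neurodegenerative diseases.

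The sequence before the start of Kif5c is shown because AGGTCA is the motif that thyroid hormone receptors recognise. The 250 bases upstream of the annotated start come from RefSeq on GRCm38.p6 (chr2:49619036-49619285, plus strand), with capitals marking the motif, which lies on the opposite strand and so reads TGACCT.
Kif5c: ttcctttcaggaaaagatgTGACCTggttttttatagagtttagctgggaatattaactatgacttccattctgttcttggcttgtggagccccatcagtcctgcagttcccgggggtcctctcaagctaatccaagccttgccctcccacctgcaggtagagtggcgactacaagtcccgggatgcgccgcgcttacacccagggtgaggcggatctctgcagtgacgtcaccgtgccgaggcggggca
Both strands were searched, and the motif begins 231 bases before the start. It occurred in 14.0% of the 32851 promoter windows of this length, so a window with a match is not unusual. The paired form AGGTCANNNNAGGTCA was not in this window, and 5 of the 32851 windows held it. The peak positions below are on GRCm39, the later mouse assembly, and were not placed against this window, whose positions are on GRCm38.p6. Whether any Kif5c peak covers the gene's start, an exon or an intron was therefore not analysed here.

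Kif5c had 1 region with a peak in every mouse, strong in 5 of them and weak in replicate 1 at 6 months, and a scatter of weak peaks around it. The region is on chromosome 2 from 49506109 to 49506370 (GRCm39), a width of 262 bp. The pileup, which is the number of fragments stacked at a peak's highest point, was 7 and 26 in the mice of 6 months, 16 and 13 in those of 15 months and 26 and 19 in those of 21 months. Replicate 1 at 6 months was the lowest of the 6, and the other 5 held 13 to 26 fragments. An exact 95% Poisson interval around the lowest pileup ran from 2.81 to 14.4 and around the highest from 17.0 to 38.1, which covers counting error only.

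The fold over input at this Kif5c region, as the authors' peak caller gave it, was 3.64 and 15.2 at 6 months. It was 10.0 and 7.68 in the mice of 15 months and 13.8 and 11.7 in those of 21 months. The 2 mice of 6 months thus lay on either side of the 4 older ones. Of the 112 regions that had a peak in every list, 33.9% showed the same arrangement. Both mice at 21 months lay above both at 15 months, which was also the case for 41.1% of those 112 regions. Neither arrangement is called particular to Kif5c, and between 2 ages with 2 mice each no exact permutation test could reach 0.05.

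**Figure D1:**
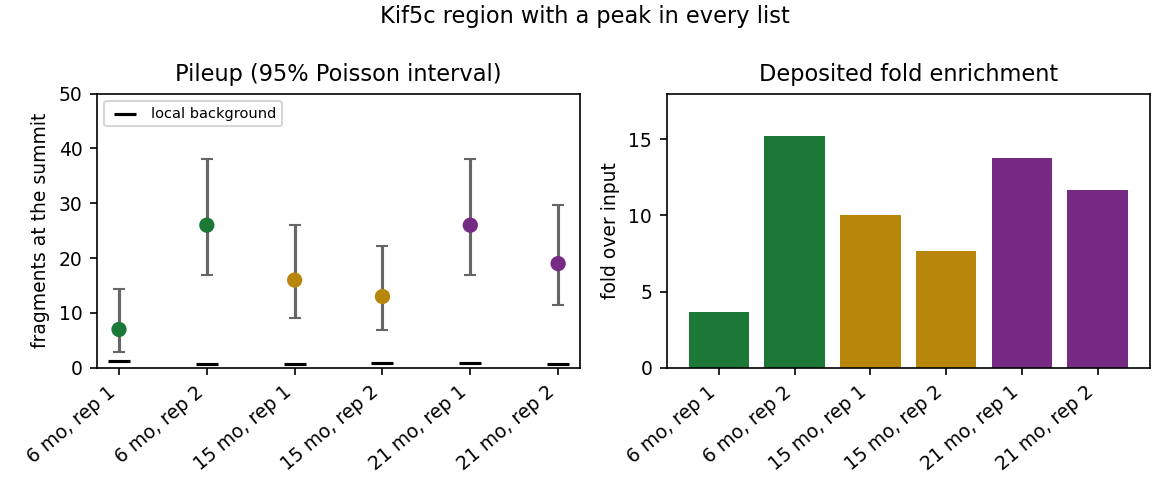
Pileup in fragments (left, points with exact 95% Poisson intervals, black dashes for the local background) and fold over input (right, bars) at the Kif5c region with a peak in every list, for each mouse, coloured by age. Replicate 1 at 6 months is the lowest in both panels, with a pileup of 7 and a fold of 3.64, and the others lie between 13 and 26 fragments.

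The Kif5c peak reached a false discovery rate (q) of at most 0.05 in 5 lists, with −log10 q of 26.6, 13.0, 7.85, 24.3 and 17.0. The exception was replicate 1 at 6 months, with −log10 q of 0.49. These 5 were the only ones among the 27 Kif5c peaks, and none of the 11 Kif5b peaks reached this limit. All 5 lie in the 1 region chosen for its peak in every list. They count 1 place 5 times and cannot be weighed against the shares that follow. In all lists together 2.21% of peaks reached it, and 1.99% of the gene-named peaks. The list of replicate 1 at 6 months was also the weakest elsewhere. It gave the lowest fold at 88 of the 112 regions shared by every list, and its peaks of 10-fold or more numbered 44, where the other lists had 108 to 211.

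The local background at the Kif5c region was worked out from the deposited pileup and fold. It was close to the lowest such value among the peaks of each list. It was 1.00 to 1.23 times that value over the 6 lists, with a median of 1.00, whereas the median over the 112 shared regions was 1.23. Input reads were not counted here, so this is not a measured input signal.

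Within each list the Kif5c peak stood high by fold. It ranked 156 of 106152 in replicate 2 at 6 months. At 15 months it ranked 199 of 99436 and 132 of 29405. At 21 months it ranked 144 of 91661 and 143 of 85987. In replicate 1 at 6 months it ranked 3230 of 79040. Among the peaks with a named gene it was in the top 3 of every list but this one, where it ranked 25 of 583.

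Among the regions shared by every list, however, Kif5c was of modest strength, and its place hardly moved. By fold its rank among the 112 was 79 and 76 in the mice of 6 months, 79 and 75 in those of 15 months and 70 and 76 in those of 21 months. Its fold was 0.449 to 0.705 times the median of those regions in the same list, and the highest ratio belonged to replicate 1 at 6 months. The 4.17-fold range of its enrichment between mice was smaller than that of 70 of the 112 regions. The 2 lists with the lowest Kif5c folds, replicate 1 at 6 months and replicate 2 at 15 months, also had the lowest medians over the 112 regions, 5.17 and 15.3, against 21.3 to 27.2 in the other lists.

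**Figure D2:**
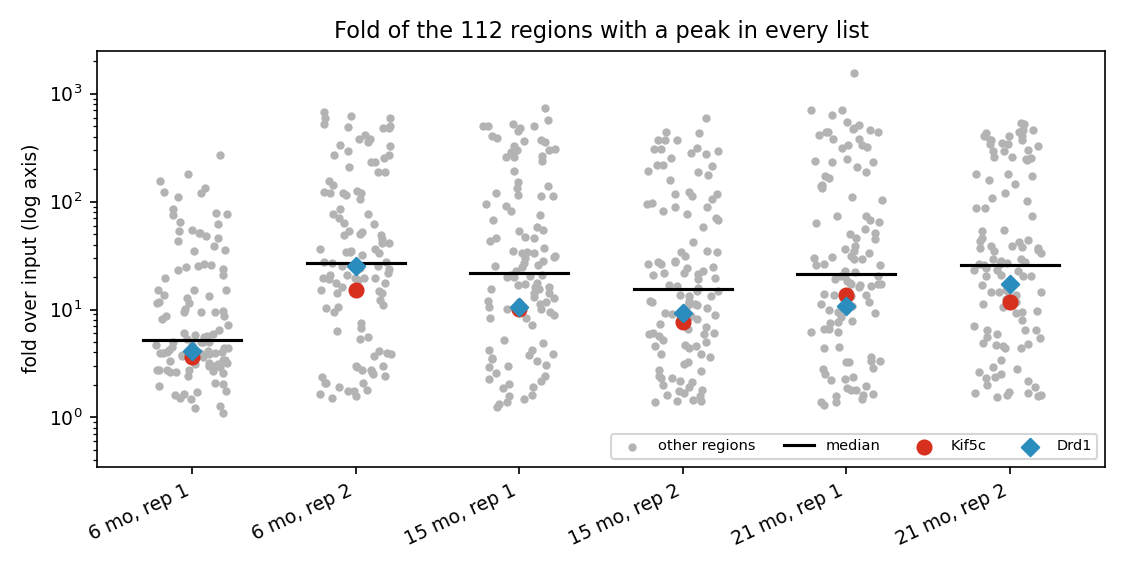
Fold over input on a log axis for the 112 regions with a peak in every list, by mouse, with Kif5c as red circles, Drd1 as blue diamonds, all other regions in grey and the median as a black line. Kif5c lies below the median in every mouse, at rank 70 to 79 of 112.

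The edges of the recurrent Kif5c peak were nearly the same in all mice, but its highest point was not. Starts differed by at most 7 bp, ends by at most 6 bp, and 5 of the 6 peaks ended at the same base, 49506370. A stretch of 249 bp was common to all 6. Edges this close were found at 10 of the 112 shared regions, Kif5c included, and the median region had an edge that moved by 101 bp. The peaks were 249 to 262 bp wide, which was 31 to 65 bp more than the shortest peak of the same list.

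The highest point of the Kif5c peak lay 25 and 18 bp from the left edge of the region at 6 months. It lay 224 and 133 bp from that edge at 15 months, and 181 bp from it in both mice at 21 months. These positions spread over 206 bp, or 78.6% of the region's width, against a median of 11.9% over the 112 regions, and 3 regions had a larger percentage. Of the 10 regions with edges as close, 2 had a summit spread as wide or wider, Kif5c itself being 1 of them. The summits of the 2 mice of an age were 7 bp apart at 6 months, 91 bp at 15 months and 0 bp at 21 months. These distances were not worked out for the other shared regions, and a relation of summit position to age was not tested. The Kif5c summits rest on pileups of 7 to 26 fragments, in peaks little wider than the shortest of their lists. Their precision was not analysed here.

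**Figure D3:**
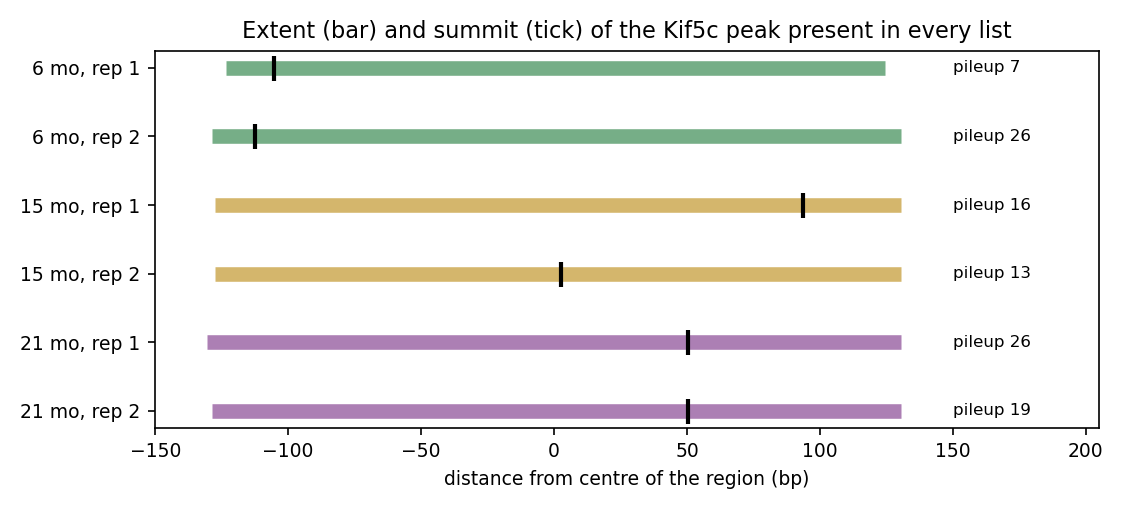
Extent (bars) and summit (black ticks) of the Kif5c peak in each list, by distance in bp from the centre of the region, with the pileup of each peak beside it. The bars nearly coincide, with starts within 7 bp and ends within 6 bp, while the ticks spread over 206 bp.

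Outside this region Kif5c had 21 peaks in 5 lists, and all were weak. The mice of 6 months had 6 and 6 of them, those of 15 months 4 and 0, and those of 21 months 1 and 4. Pileups ran from 3 to 7 with a median of 4, and folds from 2.21 to 3.55 with a median of 2.79. The lowest q among them was 0.327. Their median percentile by fold within a list was 48.8, so they were typical of the lists at large. The highest was in replicate 1 at 6 months, at 49468671 to 49469075, with a fold of 3.55, nearly that of the recurrent region in the same mouse.

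All Kif5c peaks lay between 49427428 and 49535711 on chromosome 2, a span of 108 kb. Every one of the 27 peaks in this span carried the Kif5c name. The span was set by the named peaks themselves, so no peak outside it could carry that name. The 41 peaks within 100 kb on either side carried no gene name at all. Of the 21 weak peaks, 13 lay at lower and 8 at higher positions than the recurrent region. The nearest at lower positions was in replicate 2 at 6 months, 49505121 to 49505413, and the nearest at higher positions was in replicate 1 at 6 months, 49509944 to 49510176.

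The 27 Kif5c peaks fell into 20 regions, of which 3 had peaks in at least 2 lists. Over all gene-named regions 5.52% did, and over all regions 6.4%. The recurrent region, 1 of these 3, was chosen for its peak in every list. Neither this comparison nor the next therefore tests recurrence. Outside it, 2 of 19 Kif5c regions had peaks in at least 2 lists. The recurrent region was 1 of the 2 gene-named regions with a peak in all 6 lists, out of 3588 (0.0557%). Of all 458111 regions 0.0244% had one. The other 2 Kif5c regions were each found in 2 lists at fold values under 3. A region from 49462501 to 49462805 had folds of 2.24 in replicate 1 at 6 months and 2.65 in replicate 1 at 15 months. A peak of replicate 2 at 6 months, with a fold of 2.85, ended 5 bases short of it. The third, from 49532470 to 49533475, was shared by the 2 mice of 6 months, with folds of 2.73 and 2.76, but through an overlap of only 11 bp.

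**Figure D4:**
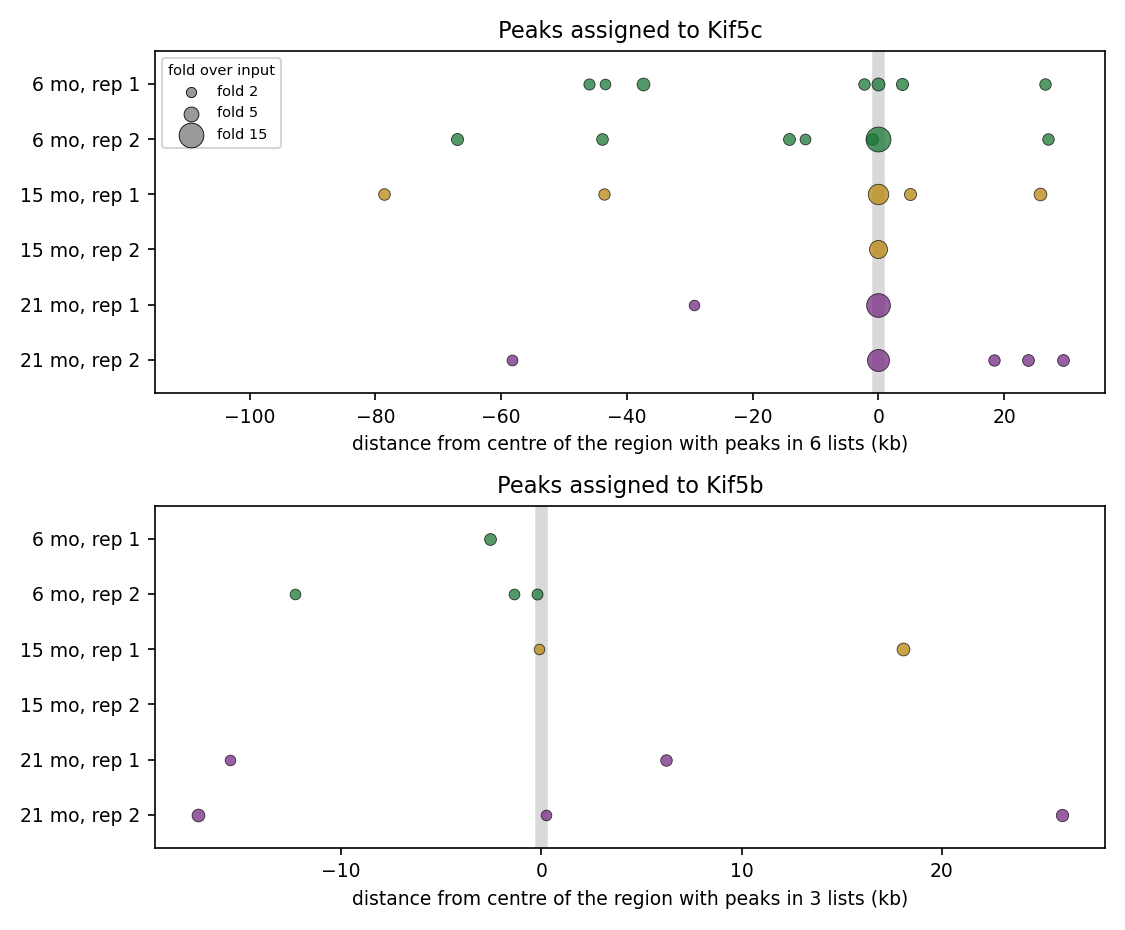
Position of every peak assigned to Kif5c (top) and Kif5b (bottom) in each list, in kb from the centre of the most widely shared region of each gene (its place marked by a grey band, not to width), with circle area growing with fold over input and colour showing age. Large circles occur only at the Kif5c region with a peak in every list, where 5 lists have folds of 7.68 to 15.2, and the Kif5b circles are all small, with folds up to 3.54.

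Kif5b, the widely expressed heavy chain, had 11 peaks, all with low folds. The mice of 6 months had 1 and 3, those of 15 months 2 and 0, and those of 21 months 2 and 3, all on chromosome 18 between 6241452 and 6284820 (GRCm39). Pileups were 3 to 6 and folds 2.20 to 3.54, with a median of 2.45. Percentiles by fold within a list ran from 1.57 to 90.0, with a median of 28.6. The list of replicate 2 at 15 months held no Kif5b peak among its 247 gene-named peaks, and it was the shortest of the lists. The limit that a count of 0 allows, taken as 3 counts of this total, was 1.21%, and the upper end of the exact binomial 95% interval was 1.48%.

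The best Kif5b peak differed in place from list to list and never had a q of 0.05 or less. At 6 months the best folds were 2.94 at 6256014 to 6256261 and 2.45 at 6258358 to 6258621. At 15 months replicate 1 had 3.54 at 6276556 to 6277044. At 21 months they were 2.76 at 6264773 to 6265096 and 3.51 at 6241452 to 6241715. The lowest q of any Kif5b peak was 0.367, in replicate 1 at 15 months.

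The 11 Kif5b peaks fell into 9 regions, and 2 of these had peaks in at least 2 lists. Over all gene-named regions 5.52% did, and over all regions 6.4%, and the difference was not tested. The first Kif5b region, from 6258358 to 6259067, joined peaks of 3 lists but held no base common to all. The peak of replicate 2 at 6 months, with a fold of 2.45, lay wholly within that of replicate 1 at 15 months, with a fold of 2.20, except for its first base. The peak of replicate 2 at 21 months, with a fold of 2.24, touched only the far end of the latter. The pileups of these 3 peaks were 3, 4 and 3 fragments. A second region, from 6241300 to 6241715, paired the Kif5b peak of replicate 2 at 21 months with a peak of replicate 1 at 15 months that carried no gene name, over 118 bp. This unnamed peak had a fold of 2.59 and began 152 bp before the first peak that carried the Kif5b name.

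The share of Kif5c among gene-named peaks was higher in both mice of 6 months than in the 4 older mice, by a margin within counting error. The mice of 6 months had 1.20% and 0.825%, those of 15 months 0.611% and 0.405%, and those of 21 months 0.315% and 0.734%. The same arrangement, noticed after the values were seen, was found for 3.8% of the 395 named genes. Only a gene with peaks in both lists of 6 months can show it, and the median gene had 6 peaks over all lists. This percentage is therefore not a p-value, and the one among genes with as many peaks as Kif5c was not analysed here. Its exact binomial 95% interval at 6 months ran from 0.484% to 2.46% and from 0.333% to 1.69%, and the intervals of all 6 mice overlapped. The mean at 6 months was 1.01% ± 0.265 (SD, n = 2). It was 0.508% ± 0.145 (SD, n = 2) in the mice of 15 months and 0.525% ± 0.296 (SD, n = 2) in those of 21 months.

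The Kif5c share did not pass its test against age. Both genes were chosen by which peaks carried their names, so this test and that of Kif5b use values that entered the choice. Each list's Kif5c count also includes the peak chosen for its presence in every list. In replicate 2 at 15 months it was the only Kif5c peak. Pearson's r over the 6 mice was -0.73 (two-sided exact permutation p = 0.111, adjusted over the 2 genes 0.222). Spearman's rho came to -0.72 (exact permutation p = 0.178, adjusted 0.356). Leaving out the 2 mice of 6 months, whose age is farthest from the median, r was 0.05, so the relation rested on those mice. Of the 90 assignments of ages to mice, the smallest p possible was 0.0111. With a pileup of at least 5 in every list r was -0.40 (exact permutation p = 0.456).

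The Kif5b share also did not pass. The mice of 6 months had 0.172% and 0.354%, those of 15 months 0.244% and 0%, and those of 21 months 0.315% and 0.441%, from 0 to 3 peaks a list. Means were 0.263% ± 0.129 (SD, n = 2), 0.122% ± 0.173 (SD, n = 2) and 0.378% ± 0.0884 (SD, n = 2) at the 3 ages. Pearson's r with age was 0.26 (two-sided exact permutation p = 0.633, adjusted 0.633), with a Spearman's rho of 0.36 (exact permutation p = 0.533, adjusted 0.533). Over the 4 mice of 15 and 21 months r was 0.80, and without replicate 2 at 21 months it was -0.06. Leaving out any of the other 5 mice kept r positive, from 0.13 to 0.57.

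**Figure D5:**
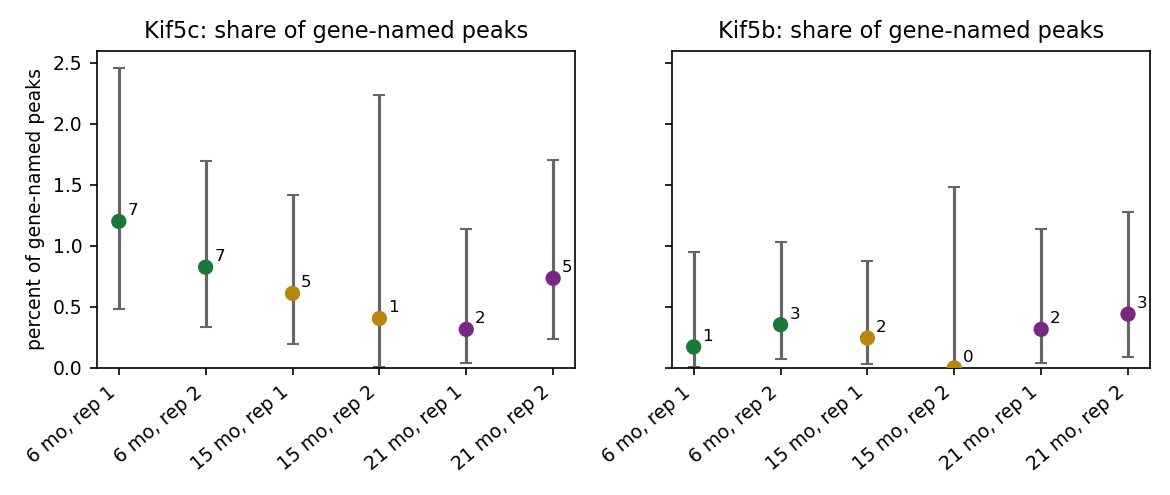
Peaks of Kif5c (left) and Kif5b (right) as a percentage of the gene-named peaks of each list, with exact binomial 95% intervals and the number of peaks beside each point, coloured by age. The intervals of all 6 mice overlap for each gene, and the counts are 1 to 7 for Kif5c and 0 to 3 for Kif5b.

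Kif5a, the third kinesin-1 heavy chain, was named for 6 peaks, all on chromosome 10. There were 3 in replicate 2 at 6 months, 1 in replicate 1 and 2 in replicate 2 at 21 months, and 0 in the other 3 lists. Folds were 2.34 to 3.06, none had q of at most 0.05, and no position was shared between mice. By number of peaks Kif5c had more than most named genes, with 29 of the 395 above it, against a median of 6 peaks per gene. Kif5b had 108 genes above it and Kif5a 180. Gene length was not analysed here.

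The gene most like Kif5c was Drd1, which encodes the dopamine D1 receptor. Likeness was the distance in mean within-list percentile of the best peak by fold over the 6 lists, among the 73 genes with peaks in every list (18.5% of the 395). The mean percentile was 98.8 for Kif5c and 99.6 for Drd1, and the next were Atg7, an enzyme of autophagosome formation, at 95.3, and Grin2a, a glutamate receptor subunit, at 94.6. Their best peaks were taken from more peaks, 75 for Atg7 and 95 for Grin2a, against 27 for Kif5c and 23 for Drd1. Of these, 3 of Atg7 and 1 of Grin2a had q of at most 0.05, against 5 each of Kif5c and Drd1. Only Drd1 also had a region with a peak in every list. Its folds there, on chromosome 13, were 4.10 and 25.1 in the mice of 6 months, 10.6 and 9.27 in those of 15 months and 10.7 and 17.2 in those of 21 months. Drd1 peaks were 233 to 668 bp wide with highest points within 35 bp of each other, whereas the highest points of the Kif5c peaks spread over 206 bp between nearly constant edges. Likeness was not computed for Kif5b, which lacked a peak in 1 list.

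Of 52 listed motors, adaptors and track proteins of microtubule transport besides Kif5b and Kif5c, 3 were named by the text, which were Kif5a, App and Mapt. The text named 1.8% of the 21900 protein-coding symbols in the names table. App, the amyloid precursor protein, had 46 peaks over all 6 lists with a best fold of 4.29 and 1 peak with q of at most 0.05. Mapt, the microtubule protein tau, had 6 peaks in 4 lists with a best fold of 3.78. The light chains and the adaptors that link kinesin-1 to mitochondria were not named, and their occupancy was not analysed here.

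Of 99 listed genes of dopamine synapse signalling, 28 were named, where the text named 1.8% of the 21900 protein-coding symbols. The annotation of this pathway includes the kinesin-1 heavy chains. Only 0.775% of all peaks carried a gene name, so these counts describe the deposited text, and a gene not named may still have peaks. Of the 28, 5 had peaks in all 6 lists, where 18.5% of all named genes did. These 5 were Drd1, Drd2, Camk2b, Grin2a and Gsk3b. A region in at least 3 lists was found for 3 of the 28, which were Drd1, Camk2b and Grin2a, and for 4.05% of all named genes. Peaks with q of 0.05 or less were found for 5 of the 28 and for 13.7% of all named genes. They were Drd1 with 5 such peaks, Camk2b with 3, Camk2g, a second subunit gene of the calcium/calmodulin kinase, with 2, and Grin2a and Mapk9 with 1 each. The number for Kif5c, 5, equalled that of Drd1. All 5 of Kif5c came from the region chosen for its peak in every list.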

How the data were processed

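Peaks of 6 mice were analysed from the deposited tables. The submitters' processing notes list MACS2 2.1.1.20160309, SAMtools 1.3.1, Trimmomatic 0.36 and HOMER, and both GRCm39 and mm10; the aligner and caller settings used are, in the sources used here, not given. Scaffold names in the lists (13 peaks on MU069 scaffolds) belong to GRCm39. Peak names pair each library with its own mouse's input. The pileup deposited by the authors is a signal, fragments at the summit. Fold enrichment, a ratio of pileup to local background, was deposited by the authors. Deposited p and q are −log10 values, with a lowest −log10 p of 2.00 to 2.01 per list. Their column headers were unreadable, and the columns were identified by their place in the caller's usual order. A Poisson p from pileup and background matched the first within 1% for 100% of the peaks where it could be computed, and the second never fell as the first rose, so q rests on the column order. The browser lists held the same peaks and pileups.

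Overflow text followed 3987 peaks, and accessions in it were matched to symbols with a RefSeq table of GRCm38.p6, used for names, leaving 175 unnamed. Background was (pileup + 1) / fold − 1. Peaks overlapping by at least 1 bp were merged into regions. Read totals were not used here, so depth is known only through this background, and absence of a peak does not show absence of binding. The caller's values describe single peaks within a list. Shares were tested against age by exact permutation with Benjamini-Hochberg adjustment (Python 3.11.15, numpy 2.4.6, scipy 1.17.1). Mice were the unit, and these p-values give how often an assignment of ages to mice yields a correlation at least as strong. Merging and the test were tested on simulated data. The members, lists and tests were chosen with earlier results of these data known. Genes named follow a rule: member regions in at least 3 lists, peaks with q of at most 0.05, the best peak per list, gene-named regions in at least 5 lists, the 3 genes nearest in percentile of fold, and 2 gene lists. Member regions in 2 lists, Kif5a and gene-list members other than by count were added after their values were seen.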

Additional observations from a re-analysis of the deposited data

How the results depend on the processing

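The Kif5c region kept a peak in all 6 lists with equal list lengths and with a reciprocal overlap of at least 50%, and in 5 lists under either limit on q. Merging across 200 bp gave 6 lists, and leaving out any mouse gave all 5 remaining lists. Both of these outcomes were fixed in advance, because the region was chosen for its peak in every list, so they test nothing. Kif5c regions in at least 2 lists numbered 3, and 1 with q of at most 0.05, with −log10 q of at least 5 or with equal list lengths. Leaving out 1 mouse gave 1 to 3, with 1 without replicate 1 at 6 months. Kif5b regions in at least 2 lists numbered 2, then 0 under both limits on q and with equal list lengths, and 1 with reciprocal overlap or when only peaks carrying the name counted, the last chosen after seeing the data. Leaving out 1 mouse gave 0 to 2, with 0 without replicate 1 at 15 months and 1 without replicate 2 at 21 months. Against age, r of the Kif5c share was -0.90 to -0.54 without 1 mouse each and that of Kif5b -0.063 to 0.57; the sign of the Kif5b share turned, to -0.063, without replicate 2 at 21 months. With the replicate number as a block, r was -0.73 for Kif5c (exact permutation p = 0.167, adjusted 0.333) and 0.26 for Kif5b (exact permutation p = 0.75, adjusted 0.75), and no alternative brought either past the threshold. The labels give no shared animal, litter or day for a number. Pileups of 3 to 7 fragments limit what the weak peaks can show.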
